A study of Mus musculus with 3 samples.

Results

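Rfpl4, Omt2, Oog and Tcl1 are small families of genes that are active in the mouse oocyte. Their rows were taken from the deposited table by symbol: names that begin with Rfpl4, Omt2, Tcl1, or Oog followed by a digit. This gave 20 listed transcripts of 11 genes, out of 9126 transcripts of 6104 genes. The 11 genes are Rfpl4, Omt2a, Oog1, Oog2, Oog3, Oog4, Tcl1b1, Tcl1b2, Tcl1b3, Tcl1b4 and Tcl1b5. The other 3 protein-coding genes of these families in the RefSeq annotation, Tcl1, Omt2b and Rfpl4b, were not analysed here.

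RNA came from metaphase II oocytes of ICR mice, an outbred strain, in 3 libraries: aged oocytes matured with secretome (aged-sec), aged oocytes matured without it, and young oocytes. Oocytes were taken with the germinal vesicle intact and cultured 16 to 18 h in M16 medium. For the aged-sec library the medium held, 1 to 1, hUC-MSC secretome, the material that stem cells from human umbilical cord release. Each library pooled 20 oocytes from 4 mice and was made by SMART-Seq2 cDNA synthesis. The ages of the mice in the young and aged groups are not stated in the labels. As each group is 1 library, values carry no error and no test was made, and differences are between libraries. The unit is TPM, transcripts in each 1000000, which is scaled for transcript length and so allows levels of different genes to be compared. A higher TPM of one mRNA cannot be told apart from less of the other mRNAs in the same library. The table holds no row whose aged TPM is under 1.2 times its young TPM, so an excess in aged oocytes was fixed by the table and is given as a description. Such a choice can also favour high aged values, which would lower the ratios of aged-sec to aged TPM. The size of this effect was not tested.

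A growing oocyte stores mRNAs that serve maturation and the first divisions of the embryo, before the embryo's own genes are switched on. RFPL4 is a RING finger protein of the egg that binds, in mouse, components of the ubiquitin and proteasome system and cyclin B1. Tcl1b genes encode relatives of TCL1, a protein that binds the kinase AKT and raises its activity. Oog genes encode oogenesins, leucine-rich proteins of the PRAME-like group, and the mouse OOG1 protein was reported to bind Ras and the Ral activator RALGDS. Omt2a is named for oocyte maturation, and its protein is less well understood.

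The Oog and Tcl1b genes are copies of one another, and this bears on how far their values can be separated. The following stretches of 90 coding bases show it for Tcl1b, all from chromosome 12 of GRCm38 (GENCODE M21). They are the stretch of Tcl1b3 that differs least from the other copies, written 5′ to 3′, and capitals mark bases that differ from Tcl1b3.

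Tcl1b3: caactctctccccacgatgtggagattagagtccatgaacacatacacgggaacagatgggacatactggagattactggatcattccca
Tcl1b5: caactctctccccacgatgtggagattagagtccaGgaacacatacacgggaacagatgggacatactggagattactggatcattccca
Tcl1b2: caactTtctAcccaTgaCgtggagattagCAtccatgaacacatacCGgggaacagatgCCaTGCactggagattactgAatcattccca
Tcl1b4: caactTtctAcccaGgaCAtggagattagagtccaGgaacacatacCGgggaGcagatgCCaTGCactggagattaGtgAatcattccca
Tcl1b1: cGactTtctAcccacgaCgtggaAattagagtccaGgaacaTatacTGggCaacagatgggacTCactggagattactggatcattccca

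Tcl1b5 differed from Tcl1b3 at 1 of these bases, against 12 in Tcl1b1, 14 in Tcl1b2 and 16 in Tcl1b4. Over the whole coding sequence, identity between pairs of the 5 genes ran from 72.5% for Tcl1b1 and Tcl1b3 to 88.3% for Tcl1b3 and Tcl1b5. An exact copy of a 50-base window in another gene gives a measure of what a short read could not assign. Of the windows of the Tcl1b3 transcript, 33.5% also occurred in another Tcl1b gene, against 31.4% in Tcl1b2, 20.5% in Tcl1b5, 11.1% in Tcl1b1 and 2.75% in Tcl1b4.

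For Oog, the stretch of Oog1 that differs least from Oog2, Oog3 and Oog4 is shown next, with 2 genes outside the families that share most of Oog1. Oog1, Gm2042 and Gm10436 lie on chromosome 12 and the other Oog genes on chromosome 4. Capitals mark bases that differ from Oog1.

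Oog1: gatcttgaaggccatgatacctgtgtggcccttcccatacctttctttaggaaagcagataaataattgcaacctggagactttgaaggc
Gm2042: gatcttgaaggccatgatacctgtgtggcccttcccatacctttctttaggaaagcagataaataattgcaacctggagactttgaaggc
Gm10436: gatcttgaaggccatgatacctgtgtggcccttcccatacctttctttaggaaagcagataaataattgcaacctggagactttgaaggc
Oog4: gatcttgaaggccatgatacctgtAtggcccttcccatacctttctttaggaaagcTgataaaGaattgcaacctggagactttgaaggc
Oog3: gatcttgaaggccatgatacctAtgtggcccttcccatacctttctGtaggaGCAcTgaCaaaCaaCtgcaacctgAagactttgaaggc
Oog2: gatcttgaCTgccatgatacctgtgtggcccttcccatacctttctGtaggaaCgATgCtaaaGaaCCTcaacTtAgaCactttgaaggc

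Gm2042 and Gm10436 were identical to Oog1 over these 90 bases, while Oog4 differed at 3, Oog3 at 10 and Oog2 at 14. Of the 50-base windows of Oog1, 94.8% occurred in Gm2042 and 62.3% in Gm10436, and 96.7% in at least 1 other gene. Among the Oog genes themselves, coding identity was between 74.1% and 81.4%. Oog2 shared 45.2% of its windows with other genes, chiefly Gm13084 (40.7%), and Oog3 shared 19.7%. Oog4 shared 0.792%, and Omt2a shared 29.5%, all of it with Omt2b. No window of Rfpl4 occurred in another gene. Among the annotated transcripts, Rfpl4 is thus free of this sharing between genes, and Oog1 is the most exposed to it. The measure does not see copies listed under one gene name. Every listed Oog4 row has a repeated copy with equal TPM, and Oog2, Tcl1b1, Tcl1b2 and Tcl1b3 also have rows marked as second copies. The reference is of another strain than ICR, and the read length is not stated in the labels.

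**Figure D1:**
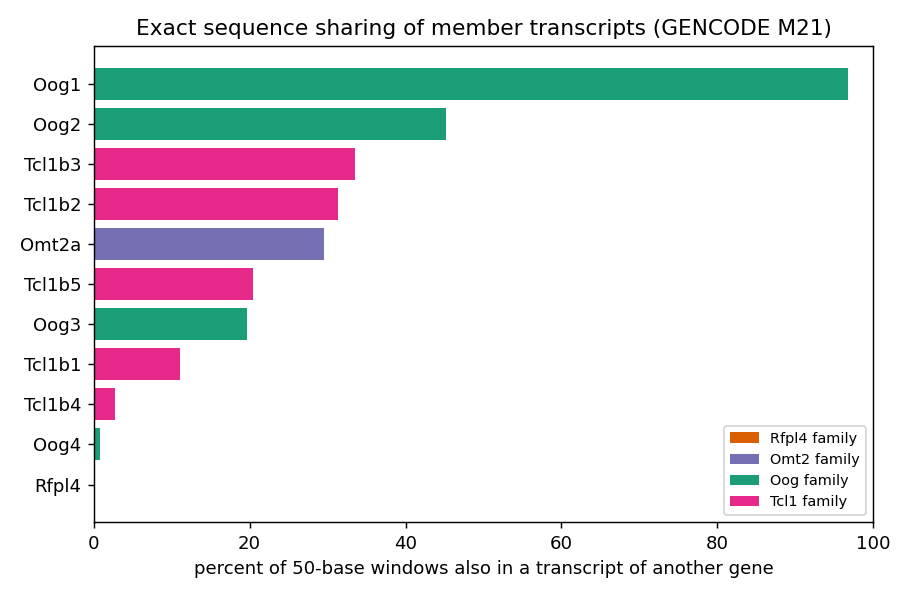
Percent of the distinct 50-base windows of each gene's transcript that also occur, base for base, in a transcript of another gene (GENCODE M21); bars are coloured by family. Oog1 stands at 96.7% and Oog2 at 45.2%, while no window of Rfpl4 is shared.

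Together the 20 rows were a sizeable part of the messenger RNA measured. They summed to 16954 TPM in aged-sec oocytes, 17503 TPM in aged oocytes and 11959 TPM in young oocytes, or 1.7%, 1.75% and 1.2% of the library. These are ratios of 0.969 for aged-sec over aged, 1.46 for aged over young and 1.42 for aged-sec over young. For a scaling to equal medians, TPM of each row was divided by the row's geometric mean over the 3 libraries. Each library was then divided by its median of these ratios. This would shift every log2 ratio of aged over young by −0.79 and every one of aged-sec over aged by 0.29. Directions therefore hold for TPM as deposited. Under that scaling the aged over young direction turns for the sum and for each of the 4 families, and the aged-sec over aged direction turns for all of them but Omt2a. As no listed row is under 1.2, a turn in aged over young means only a ratio below the middle of the listed rows. The median aged over young ratio was 1.71 for all listed rows and 1.40 for other rows of 100 TPM or more. Summed, the whole table had nearly the same deposited ratios as the 20 rows, at 0.99, 1.42 and 1.40. The families held 5.27%, 5.39% and 5.22% of its TPM in the aged-sec, aged and young libraries. The families therefore stood in much the same proportion to the listed transcripts in each library. Of the 20 rows, 5 had a mean of 1000 TPM or more and 12 had 100 TPM or more. The lowest row, a predicted Tcl1b5 variant, stood at 1.02, 1.32 and 0.92 TPM in aged-sec, aged and young oocytes.

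**Figure D2:**
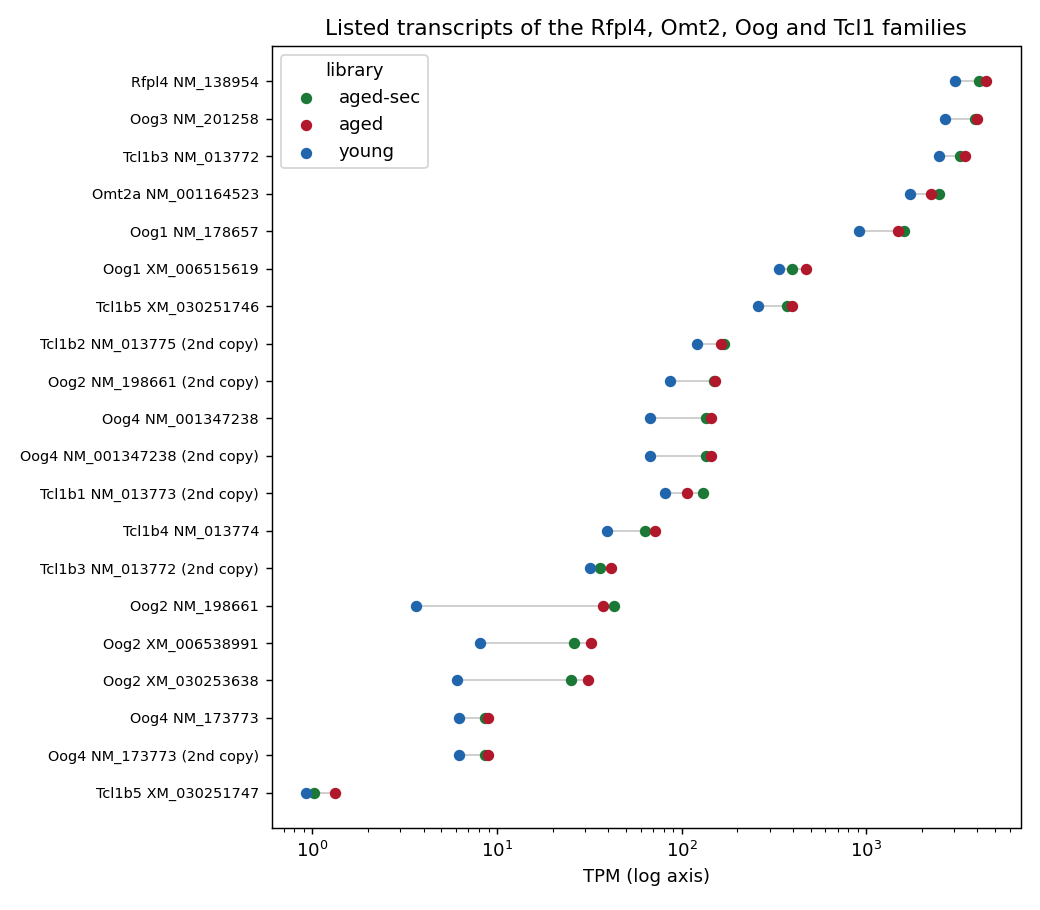
TPM (log axis) of the 20 listed transcripts in the aged-sec, aged and young libraries, 1 point per library, ordered by mean; a grey line spans the 3 values. Rfpl4 is highest at 4098, 4485 and 3024 TPM, and the widest spans belong to 3 rows of Oog2.

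Rfpl4 (NM_138954), the RING finger gene, was the most abundant of the 11 genes in every library. It stood at 4098 TPM in aged-sec, 4485 TPM in aged and 3024 TPM in young oocytes. In deposited TPM aged oocytes were highest and young oocytes lowest, an order that turns in both comparisons with equal medians, with ratios of 0.914 for aged-sec over aged and 1.48 for aged over young. Rfpl4 ranked 13 by mean TPM in the whole table. Among the 14 listed transcripts outside the families and within 2-fold of its level, 1 had a higher aged over young ratio and 11 had a higher aged-sec over aged ratio.

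Of 3 partners of mouse RFPL4 (Ube2a, Psmb1 and Ccnb1), Ccnb1 was in the table and the others were not analysed here. Ccnb1 encodes cyclin B1, the activator of the kinase that drives metaphase, and stood at 1754, 2083 and 1643 TPM in aged-sec, aged and young oocytes. Its ratio of aged-sec over aged was 0.842 and that of aged over young 1.27.

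Omt2a (NM_001164523) stood at 2468 TPM in aged-sec, 2257 TPM in aged and 1737 TPM in young oocytes. Unlike Rfpl4 it was highest in the aged-sec library, with ratios of 1.09 for aged-sec over aged, which stays above 1 with equal medians, and 1.30 for aged over young, which does not. Its aged over young ratio was the lowest of the 20 rows. That ratio was also close to the median of 1.29 over the 19 transcripts outside the families and within 2-fold of the level of Omt2a.

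The promoters of Rfpl4, Omt2a and Oog3 are shown because these genes are among the most abundant members and represent unrelated families. Sequences are from RefSeq (GRCm38.p6), minus strand, from 250 bases before to 50 after the gene's start: Rfpl4 at chr7:5116862-5117161, Omt2a at chr9:78313999-78314298 and Oog3 at chr4:144162602-144162901. Capitals mark matches on either strand to CANNTG, the E-box bound by oocyte factors such as FIGLA, and to TAATTG or TAATTA, bound by the oocyte homeobox factor NOBOX.

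Rfpl4: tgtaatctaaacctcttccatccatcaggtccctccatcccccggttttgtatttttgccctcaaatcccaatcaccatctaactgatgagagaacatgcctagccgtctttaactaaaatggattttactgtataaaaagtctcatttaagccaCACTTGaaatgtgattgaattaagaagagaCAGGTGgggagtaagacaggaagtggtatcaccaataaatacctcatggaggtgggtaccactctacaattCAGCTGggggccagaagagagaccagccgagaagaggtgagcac
Omt2a: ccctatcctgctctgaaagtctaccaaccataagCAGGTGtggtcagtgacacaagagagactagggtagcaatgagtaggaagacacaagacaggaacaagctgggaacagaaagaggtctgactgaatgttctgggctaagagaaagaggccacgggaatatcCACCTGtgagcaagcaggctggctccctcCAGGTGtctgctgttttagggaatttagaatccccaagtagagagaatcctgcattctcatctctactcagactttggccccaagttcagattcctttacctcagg
Oog3: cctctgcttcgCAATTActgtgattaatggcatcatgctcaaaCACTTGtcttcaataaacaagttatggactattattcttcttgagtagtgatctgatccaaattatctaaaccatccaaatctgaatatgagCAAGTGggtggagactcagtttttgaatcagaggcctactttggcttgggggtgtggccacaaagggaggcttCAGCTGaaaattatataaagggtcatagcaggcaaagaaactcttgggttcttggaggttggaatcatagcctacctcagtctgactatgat

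Each of the 11 member promoters held at least 1 CANNTG, as did 72.3% of all 32851 RefSeq promoters of this length. TAATTG was found in 2 of the 11, Oog3 and Oog4, against 8.0% of all promoters, and TAATTA in none, against 5.29%. The letters CANNTG read the same on both strands, and none of the matches shown overlaps another. Between Tcl1b genes, promoter identity over aligned bases ran from 74.0% to 98.6%, and between Oog genes from 76.1% to 84.4%.

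The Oog family was the most abundant, with 11 rows of 4 genes. It summed to 6403 TPM in aged-sec, 6540 TPM in aged and 4194 TPM in young oocytes, ratios of 0.979 for aged-sec over aged and 1.56 for aged over young, both of which turn with equal medians. Oog3 (NM_201258), with 1 row, supplied most of it, at 3866, 4011 and 2691 TPM in aged-sec, aged and young oocytes. Its aged-sec and aged values lay close together, with a ratio of 0.964. Of 17 transcripts outside the families and within 2-fold of the level of Oog3, 1 had a higher aged over young ratio than its 1.49.

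Oog1 was listed as a curated and a predicted variant, which stood on opposite sides of equal TPM between the aged-sec and aged libraries. The curated one (NM_178657) stood at 1606 TPM in aged-sec, 1496 TPM in aged and 913 TPM in young oocytes. The predicted one (XM_006515619) stood at 397, 474 and 337 TPM. Summed, Oog1 was nearly level between the treated and untreated aged libraries, at 2002 and 1970 TPM, with 1251 TPM in young oocytes. The curated variant made up 80.2% of the gene in aged-sec, 75.9% in aged and 73.0% in young oocytes. With the 4 listed genes that hold at least 10% of its windows, Oog1 summed to 5844, 5665 and 3133 TPM, which raised the aged over young ratio to 1.81, against 1.57 for Oog1 alone.

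Oog2 had the widest differences between aged and young libraries. Its first curated row (NM_198661) stood at 43.0 TPM in aged-sec, 37.8 TPM in aged and 3.64 TPM in young oocytes, an aged over young ratio of 10.4. A pair of predicted variants stood at 26.3, 32.4 and 8.06 TPM (XM_006538991) and at 25.2, 31.3 and 6.04 TPM (XM_030253638). The same curated accession has another row in the table, the second copy, whose ratio was much smaller: it stood at 150 TPM in aged-sec, 152 TPM in aged and 87.0 TPM in young oocytes, an aged over young ratio of 1.74. The second copy held 61.4% of all Oog2 TPM in aged-sec, 59.9% in aged and 83.1% in young oocytes. Summed over its 4 rows, Oog2 stood at 245, 253 and 105 TPM, an aged over young ratio of 2.42. With Gm13084, the listed gene that shares most of its windows, the sum was 946, 1081 and 291 TPM and the ratio 3.72. Rows with a ratio above the 2.42 of the gene hold, by arithmetic, a smaller share of its TPM in young than in aged oocytes. How reads were divided among the rows was not tested.

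Oog4 was listed as 2 curated variants, each in 2 copies. Both copies of NM_001347238 held 136 TPM in aged-sec, 145 TPM in aged and 67.6 TPM in young oocytes. Both copies of NM_173773 held 8.63, 8.94 and 6.20 TPM. Copies of one accession had equal values in every library, so these 4 rows carry the information of 2. The aged over young ratio was 2.14 for the major variant and 1.44 for the minor one.

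**Figure D3:**
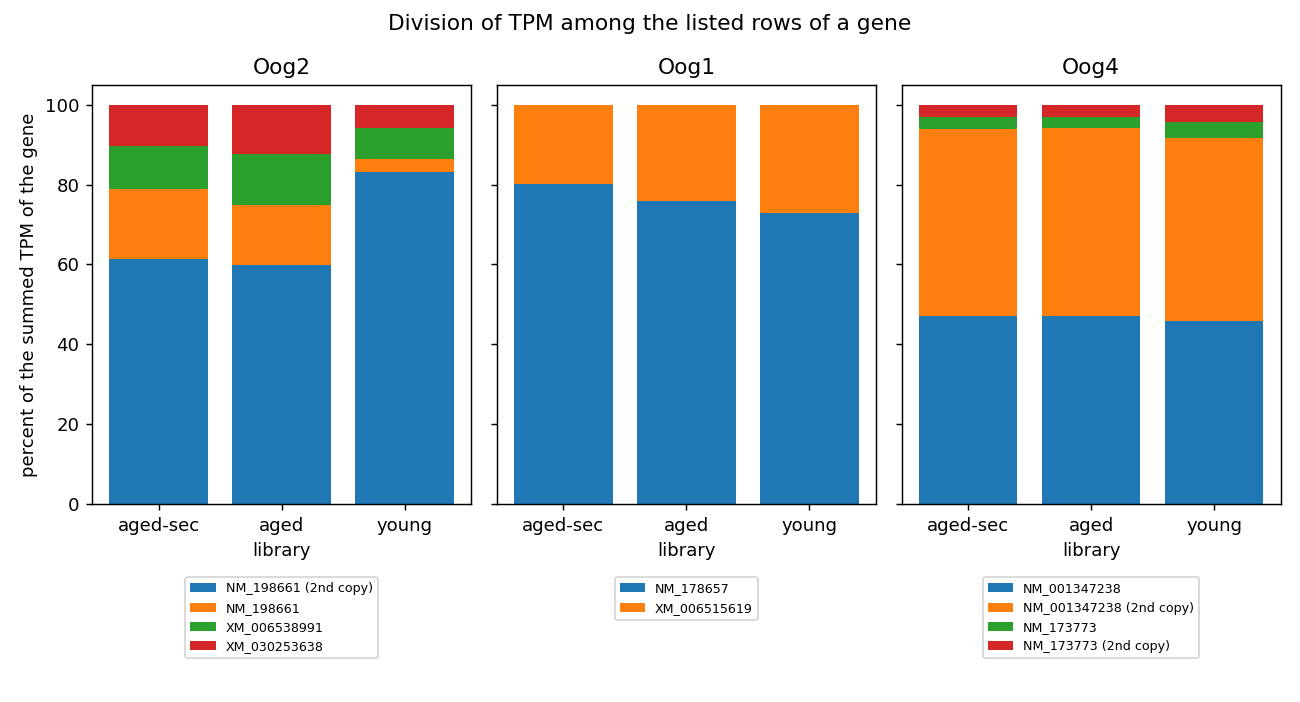
Percent of the summed TPM of Oog2, Oog1 and Oog4 in each listed row, with 1 stacked bar per library (aged-sec, aged, young). The second copy of Oog2 holds 83.1% of the gene in young oocytes against 59.9% in aged and 61.4% in aged-sec oocytes, while Oog4 divides evenly between copies.

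The Tcl1b genes summed over 7 rows to 3986 TPM in aged-sec, 4221 TPM in aged and 3005 TPM in young oocytes, differences that turn in both comparisons with aged oocytes under equal medians. Tcl1b3 (NM_013772) dominated, at 3213, 3438 and 2469 TPM, and its second copy added 36.04, 41.3 and 31.7 TPM. Its aged-sec over aged ratio was 0.934 and its aged over young ratio 1.39. Tcl1b5, whose coding sequence is the closest to Tcl1b3, was much less abundant, at 372, 398 and 260 TPM for its main predicted variant. The aged-sec over aged ratio of Tcl1b5 was 0.933.

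The remaining Tcl1b genes were lower and less alike. Tcl1b2 stood at 170 TPM in aged-sec, 163 TPM in aged and 121 TPM in young oocytes. Tcl1b1 stood at 131, 107 and 81.6 TPM, and its aged-sec over aged ratio of 1.23 was the highest of the 20 rows. Of 366 transcripts outside the families and within 2-fold of its level, 5.19% had a higher one. Tcl1b1 and Tcl1b2 were each listed in the second copy alone, and the first copies were not analysed here. Tcl1b4 stood at 63.3, 71.4 and 39.5 TPM, with the largest aged over young ratio of the Tcl1b rows, 1.80.

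Of 14 genes of AKT signalling, through which TCL1 proteins act, 7 were listed, and for 5 of these the aged-sec value was the lower of the treated and untreated aged libraries, a share near the 70.6% of the whole table. Pdpk1, the kinase that activates AKT, met the size rule described below in the age comparison, at 14.6 TPM in aged-sec, 28.4 TPM in aged and 10.2 TPM in young oocytes. Pik3r1, a regulatory subunit of phosphoinositide 3-kinase, stood at 35.9, 41.9 and 25.6 TPM, and Rictor (NM_030168), a subunit of the complex that phosphorylates AKT, at 16.3, 17.9 and 12.9 TPM. A predicted Rictor variant (XM_006520004) stood at 8.50, 10.9 and 1.29 TPM and also met the rule in the age comparison. Gsk3b, a kinase that AKT inhibits, and Pik3cb, a catalytic subunit of phosphoinositide 3-kinase, had the higher value in aged-sec oocytes, both at a low level. Gsk3b stood at 0.97, 0.56 and 0.20 TPM and the main variant of Pik3cb at 2.56, 1.90 and 1.45 TPM. Of the 4 AKT signalling rows that reached 10 TPM, none met the size rule between aged-sec and aged oocytes. Rala, a small GTPase that acts in the Ras and Ral pathway, stood at 65.8 TPM in aged-sec, 70.6 TPM in aged and 54.6 TPM in young oocytes.

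The size rule asks for a 2-fold difference after 0.5 TPM is added to each value, and for 10 TPM in the higher library. Of the 20 rows, 17 had enough TPM. In the age comparison 5 of the 17 met it, 3 rows of Oog2 and both copies of Oog4 NM_001347238. That is 29.4%, against 18.2% of all listed transcripts with enough TPM, and it comes from 2 genes. The count was 3 with curated transcripts only and 3 under either scaling to equal medians or upper quartiles, and 2 of 11 genes met the rule with rows summed per gene. The share of the whole table was not computed under these settings, so these counts cannot be set against it. The nearest row inside the rule was Oog4, with a log2 ratio of 1.09, and the nearest outside was Tcl1b4, with 0.84. The median aged over young ratio of the 20 rows was 1.49, below the 1.71 of the whole table. It was also 1.49 for the 12 rows of 100 TPM or more, above the 1.40 of the 302 other transcripts at this level. For the 5 rows of 1000 TPM or more the median was 1.48, and for the 31 other transcripts at this level it was 1.28.

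Between aged-sec and aged oocytes none of the 17 rows met the size rule in either direction, where 0.223% of listed transcripts were higher and 2.95% lower. Of the 20 rows, 15 had less TPM in aged-sec than in aged oocytes, or 75%, near the 70.6% of the whole table. With equal medians 3 of the 20 had less, and the share of the whole table under that scaling was not computed. The 5 that were higher were Omt2a, the curated Oog1 variant, the first Oog2 row, Tcl1b1 and Tcl1b2. The ratios ran from 0.773 to 1.23 with a median of 0.943, against 0.818 for the whole table. For the 12 rows of 100 TPM or more the median was 0.954, and for the 302 other transcripts at this level it was 0.942. At 1000 TPM or more, 3 of the 5 rows had less TPM in aged-sec than in aged oocytes, against 12 of 31 other transcripts, and the medians were 0.964 and 1.03.

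Between aged-sec and young oocytes all 20 rows were higher in aged-sec in deposited TPM, against 75.8% of the table. At like levels the share was closer. At 100 TPM or more, 12 of 12 family rows and 282 of 302 other transcripts were higher. At 1000 TPM or more, 5 of 5 family rows and 30 of 31 other transcripts were. The median log2 ratio of the 20 rows, 0.52, becomes 0.016 with equal medians. Ratios ran from 1.11 for the low Tcl1b5 variant to 11.8 for the first Oog2 row, with a median of 1.43. The same 5 rows as in the age comparison met the size rule, or 29.4%, against 17.1% of listed transcripts, and none was lower by the rule, against 0.45%. With curated transcripts only, or under either scaling, 3 rows met it, and with rows summed per gene 1 of 11 genes did, Oog2. Here too the share of the whole table was not computed under these settings. Oog4 lay at the limit, with a log2 ratio of 1.01. This comparison shares the young library with the age comparison and the aged-sec library with the other, so the 3 are not independent.

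**Figure D4:**
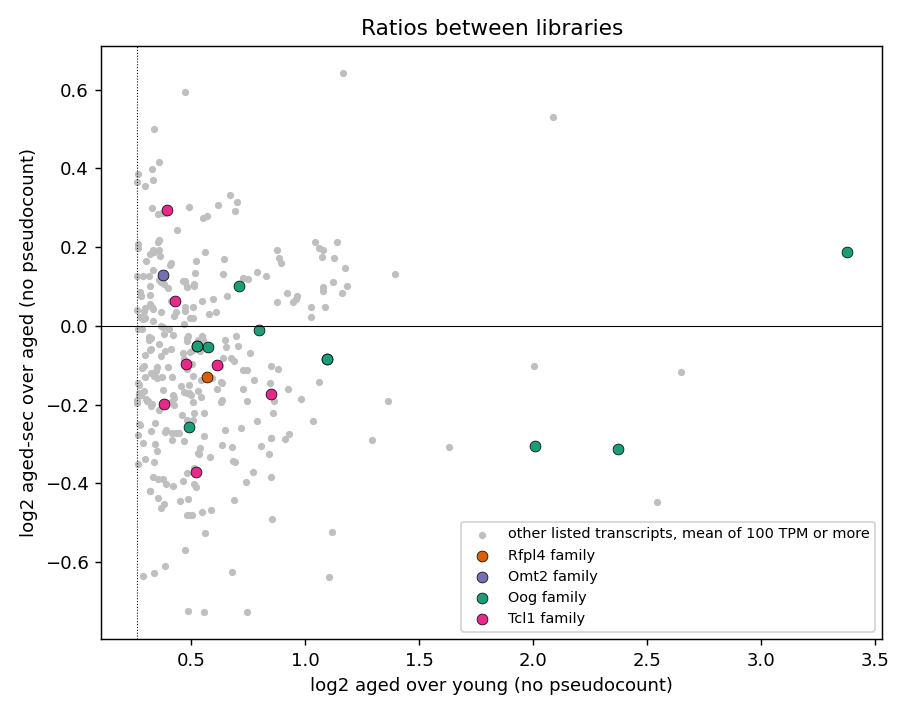
Log2 ratio of aged-sec over aged (vertical) against log2 ratio of aged over young (horizontal), with nothing added to TPM, for the 20 family rows (coloured by family) and 302 other listed transcripts of 100 TPM or more (grey); the dotted line marks the 1.2 at which the table begins. Rows of Oog2 and Oog4 lie furthest to the right. Below the horizontal line at equal TPM lie 15 of 20 rows, or 75%, against 70.6% of the whole table. With equal medians 3 would, and the share of the whole table under that scaling was not computed.

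The order of the genes by summed TPM was the same in the aged-sec and aged libraries: Rfpl4, Oog3, Tcl1b3, Omt2a, Oog1, Tcl1b5, Oog4, Oog2, Tcl1b2, Tcl1b1 and Tcl1b4. In the young library Oog2 (105 TPM) stood below Tcl1b2 (121 TPM), and the rest of the order was the same. Without replicates it cannot be said which neighbours in this order differ beyond the spread of samples.

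Genes of like profile over the 3 libraries were taken from 242 curated transcripts of at least 100 TPM. The nearest to Rfpl4 was Parp12 (383, 421 and 289 TPM in aged-sec, aged and young oocytes; distance 0.027 on the log2 scale), followed by Dek and Ranbp9. For Omt2a they were Mrps14 (144, 132 and 102 TPM; distance 0.0076), Taf9b and Ubl5. Near the Oog sum lay Bcap31 (117, 119 and 76.2 TPM; distance 0.0087), Gdap1 and Atad1, and near the Tcl1b sum lay Ddx3x (218, 233 and 164 TPM; distance 0.020), Nsrp1 and Dpy30. With 3 libraries, such closeness between a family and single genes is a description of 2 ratios and no more.

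Few other oocyte genes of the fixed lists were in the table. Of the subcortical maternal complex, a protein assembly under the egg membrane, 2 of 7 genes were listed, with Nlrp2 at 52.6 TPM in aged-sec, 57.3 TPM in aged and 41.3 TPM in young oocytes. Among 6 oocyte transcription factors, Sohlh2 stood at 7.52, 10.4 and 7.41 TPM and Taf4b at 4.95, 2.28 and 1.02 TPM. Of 13 further maternal factors 4 were listed, led by Bmp15, a growth factor secreted by the oocyte, at 799, 817 and 585 TPM. Nlrp2, Sohlh2, Bmp15 and Zp2 reached 10 TPM and did not meet the size rule in either comparison with aged oocytes. The listed rows of the other 4 genes were too low for it. Zp2, Gdf9 and Btg4 were listed as predicted variants alone, so their values do not give the level of the gene. Among the 4 genes with low rows, Taf4b had ratios of 2.17 for aged-sec over aged and 2.24 for aged over young, and Zbed3 stood at 1.53, 1.88 and 0.69 TPM. Of 12 oocyte markers 4 were listed, with a summed 824, 863 and 610 TPM. Markers of other cell types were near 0: 1 of 12 for cumulus or granulosa cells (0.22, 0.55 and 0.03 TPM), 4 of 8 for theca or stroma (3.38, 4.42 and 2.38 TPM) and 0 of 5 for blood and immune cells. The markers outside the table were not analysed.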

How the data were processed

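Groups were taken from the titles, since the treatment label names the secretome on all 3 samples. The authors deposited TPM of RefSeq mRNAs per library. They also deposited a ratio for each row, of aged to young TPM and of aged-sec to aged TPM, per the file headers. The lowest deposited ratio of aged to young was 1.2 and 0 rows held a zero, so the table is a selected part of each library. How reads were aligned and quantified, and on which build, is not given in the sources used here. TPM keeps no depth, so no counting interval is given.

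Log2 ratios had 0.5 TPM added to both values, and plain ratios had none. The size rule, a fold of at least 2 where the higher library reached 10 TPM, was checked on simulated data without noise. That check covers the arithmetic of the rule and not the spread between single libraries. Genes of like profile had the smallest distance between log2 ratios of aged over young and aged-sec over aged, among curated transcripts of at least 100 TPM. All members are named, with listed genes of the pathway lists. Members, lists and rules were chosen with earlier results of these data known. Sequences came from GENCODE M21 (GRCm38; the longest complete coding sequence per gene) and RefSeq promoters (GRCm38.p6), and were aligned end to end with Biopython 1.88 (match 2, mismatch −1, gap opening −5, extension −1). Python 3.11.15 with pandas 2.3.3 was used.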

Additional observations from a re-analysis of the deposited data

How the results depend on the processing

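Scaling moved the results most. Since each listed transcript is higher in aged than in young oocytes, scaling the listed transcripts to equal medians or equal upper quartiles shifts all log2 ratios of aged over young by −0.79 in both cases, and those of aged-sec over aged by 0.29 and 0.25. In that order of scalings, log2 aged over young became −0.24 and −0.24 for all members (0.55 as deposited), −0.22 and −0.22 for Rfpl4, −0.41 and −0.41 for Omt2a, −0.15 and −0.14 for Oog and −0.30 and −0.30 for Tcl1b, with member medians of −0.20 and −0.20. Log2 aged-sec over aged became 0.24 and 0.20 for all members (−0.046 as deposited), 0.16 and 0.12 for Rfpl4, 0.26 and 0.22 for Oog and 0.21 and 0.17 for Tcl1b, with member medians of 0.21 and 0.17. For Omt2a it became 0.42 and 0.38 (0.13 as deposited). Log2 aged-sec over young became 0.0019 and −0.0315 for the sum (0.50 as deposited), with medians of 0.016 and −0.017. Rows higher in aged-sec than aged then numbered 17 and 16, and lower ones 3 and 4. Directions are thus relative to the other listed transcripts. The size rule was then met by 3 rows under either scaling in both comparisons with young. With curated transcripts only it was also met by 3 in both. With rows summed per gene it was met by 2 genes in aged and 1 in aged-sec oocytes against young, and 7 of 11 genes were lower in aged-sec than aged. Without second copies, 3 of 14 rows were higher in aged-sec than aged. For the counts under these scalings and row choices, the share of the whole table was not computed. Adding Gm2042, Gm10436, Gm13023, C87977 and Gm13084, chosen after seeing the data, gave log2 0.65 for aged over young and 0.62 for aged-sec over young. For Oog in aged over young it gave 0.82. Of the windows of Oog1, Gm2042 holds 94.8%, Gm10436 62.3%, Gm13023 20.5% and C87977 18.7%. Of those of Oog2, Gm13084 holds 40.7%. Most of the added genes are thus not near-identical copies of an Oog gene. Other pseudocounts, minimums and dropping identical rows left every result within 0.1 on the log2 scale, or within 1.5 times for counts. No paired analysis was possible because each group has 1 library, and for the same reason no library could be left out.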

Other observations

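The genes that share exact 50-base windows with an Oog transcript, found after the data were seen, differed widely in their ratios between the aged and young libraries. Of 11 such genes 7 were listed, in 14 rows, and 10 of the 13 rows with enough TPM met the size rule in the age comparison, or 76.9%, against 18.2% of the whole table. These are counts of rows, several of them variants of one gene. None met it between aged-sec and aged oocytes. Summed over rows, Gm13084, which holds 40.7% of the windows of Oog2, stood at 701 TPM in aged-sec, 828 TPM in aged and 186 TPM in young oocytes. Gm13103, which shares 0.826% of the windows of Oog3, stood at 75.5, 110 and 2.75 TPM, the lowest young value among the 6 of these genes that were above 10 TPM in aged oocytes. C87977 stood at 177, 190 and 47.5 TPM. Gm2042, nearly identical to Oog1, stood at 1041, 968 and 529 TPM, and Gm13023 at 1690, 1653 and 825 TPM. Gm10436 stood at 933, 884 and 481 TPM, and Gm13088 was low, at 0.74, 1.52 and 0.79 TPM. Summed per gene, the aged over young ratio was 1.83 for Gm2042, 1.84 for Gm10436, 1.92 for Gm13088 and 2.00 for Gm13023, against a median of 1.71 over the whole table, and 4.01 for C87977, 4.45 for Gm13084 and 40.0 for Gm13103. Rows of one gene again differed widely, and Gm2042 had a predicted variant at 36.1, 54.5 and 0.1 TPM beside a curated one at 1005, 914 and 529 TPM. How reads of these genes were divided between copies was not tested.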
